A study of Mus musculus with 2 samples.

Results

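Radial glia and the astrocytes that later come from them are described here through 10 genes, chosen by name: Fabp7, Vim, Nes, Slc1a3, Prom1, Ptprz1 and Tnc for radial glia, and Hopx, Gfap and Aldh1l1 for astrocytes and related later cells. All 10 were found in the gene tables of both libraries, among 43346 mouse genes, of which 21460 are protein-coding genes of the nuclear genome. Total RNA longer than 200 bases was sequenced from whole forebrain of healthy B6NCrl mouse embryos at embryonic day 13.5, male and female pooled, with 10 ng of RNA per library. The 2 libraries form 1 group with no treatment, mutation or second age, so no difference between conditions could be tested. The labels call them biological replicates, and both carry the same donor code. Values below are TPM, a relative abundance that divides a gene's reads by its length and so allows levels of different genes to be compared.

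Radial glia are the neural stem cells of the embryonic forebrain. Their bodies line the ventricle, a long process reaches the brain surface, and they divide to give neurons, first directly and through intermediate progenitors, and later astrocytes. They carry a brain fatty acid binding protein, intermediate filaments and a glial glutamate transporter that astrocytes also use, whereas the filament protein of mature astrocytes appears in the mouse forebrain around birth and after. In RNA from whole tissue, fewer cells of a type and less RNA per cell cannot be told apart.

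The members spanned almost the whole range of the transcriptome. Fabp7 and Vim were among the most abundant protein-coding transcripts of the tissue, 4 radial glia genes lay between 43 and 65 TPM on average, Tnc and Aldh1l1 lay below 10 TPM, Hopx was at about 1 TPM and Gfap was at the limit of detection. Depth was 35378462 estimated counts in replicate 1 and 36793284 in replicate 2 over all listed features. Mouse genes held 34707278 of them in replicate 1 and 35818378 in replicate 2. Of the 10 members, 9 reached 1 TPM in both libraries, where 59.0% of all protein-coding genes did, and 6 reached 10 TPM, against 38.9% of all protein-coding genes. The median over the members was 43.8 ± 4.88 TPM (SD, n = 2), and over all protein-coding genes it was 3.91 ± 0.265 TPM. Together the 10 genes held 2201.53 TPM in replicate 1 and 2229.97 in replicate 2, or 0.220% and 0.223% of the TPM of all listed features. Within each library the median of log2(TPM + 1) was 4.84 ± 0.058 higher over the 7 radial glia members than over the 3 astrocyte members. The astrocyte median was the value of Hopx in both libraries, 1.20 and 1.25 TPM from 27.59 and 31 counts, so it rests on that gene alone. With means over members the difference was 5.10. The radial glia median was 1.78 lower than that of 8 neuron markers (a difference of -1.78 ± 0.061, SD, n = 2), which became -0.79 with means over genes in place of medians.

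**Figure D1:**
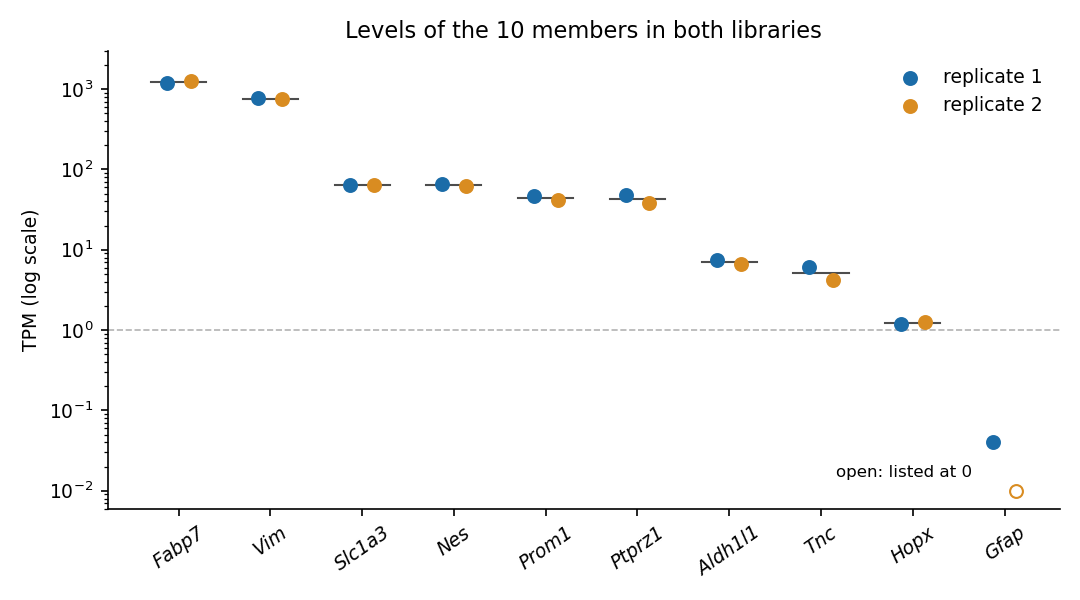
TPM of each member on a log axis, replicate 1 left of replicate 2, with short lines at the mean of both libraries (none for Gfap) and a dashed line at 1 TPM. Fabp7 and Vim stand far above the others in both libraries, and the open circle marks Gfap in replicate 2, listed at 0 and drawn at 0.01.

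Fabp7 encodes the brain fatty acid binding protein, a carrier of lipids in the cytoplasm and a classic label of radial glia. The gene lies on the plus strand at chr10:57784881-57788450 (GRCm38). Replicate 1 held 1189.78 TPM of it and replicate 2 held 1264.73 TPM, from 18671 and 21637 counts, with a mean of 1227 ± 53.0 TPM (SD, n = 2) and rank 53 of 21460. Both libraries were high and close to each other. Among 7 Fabp genes, Fabp7 held 61.8% of the summed TPM in replicate 1 and 63.0% in replicate 2. Fabp5, the epidermal form that neural cells also use, held 36.0% and 35.1%, and the ratio of Fabp7 to Fabp5 was 1.76 ± 0.0558. Fabp6, an ileal form, was listed at 0 in both. The retinoid binding genes counted with this family were led by Crabp2, with 75.18 TPM in replicate 1 and 55.08 in replicate 2. In that wider list of 9 relatives, 5 reached 1 TPM in both libraries, where 59.0% of all protein-coding genes did.

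Vim encodes vimentin, the filament protein of radial glia and of many mesenchymal and endothelial cells (chr2:13573927-13582826, plus strand). Its level was 772.23 TPM in replicate 1 and 746.1 in replicate 2, a mean of 759 ± 18.5 TPM and rank 110. Nes encodes nestin, the large filament protein of neural stem cells that co-assembles with vimentin (chr3:87971078-87980451, plus strand). Nes had 66.57 TPM in replicate 1 and 61.54 in replicate 2, a mean of 64.1 ± 3.56 TPM from 8468 and 8385 counts. Vim exceeded Nes 11.9 ± 0.370 times per length by gene TPM, and 7.74 ± 0.395 times with all reads of each gene set against its longest coding transcript (SD, n = 2), since a short noncoding transcript holds much of the TPM of Vim. Gfap, the filament gene of mature astrocytes (chr11:102887336-102900912, minus strand), had 2 counts in replicate 1, or 0.04 TPM, and 0 counts in replicate 2. The exact Poisson 95% interval was 0.242 to 7.22 counts in replicate 1 and 0 to 3.69 counts in replicate 2. A separate fixed allowance of 3 counts for a count of 0 equals 0.0486 TPM in replicate 2. These limits cover counting error only. Expression of Gfap was therefore not detectable above a trace at this depth. The authors' posterior means for it, which never reach 0, were 0.24 and 0.19 TPM. The upper bounds of the authors' intervals were 0.583 TPM in replicate 1 and 0.504 TPM in replicate 2.

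Across 13 cytoplasmic intermediate filament genes, Vim held 69.6% of the summed TPM in replicate 1 and 70.5% in replicate 2, Nes held 6.0% and 5.82%, and Gfap held 0.0036% and 0%. Ina, which encodes the neuronal filament protein internexin, was next to Vim with 16.7% and 15.9%. Of the 12 relatives in the wider list, which includes the nuclear lamins, 8 reached 1 TPM in both libraries. Of all protein-coding genes 59.0% did. The list was led by Ina (176 ± 11.9 TPM), the lamin gene Lmnb1 (163 ± 21.2 TPM) and the neurofilament gene Nefl (41.5 ± 1.02 TPM). Sync, a filament protein known from muscle, was lowest at 0.155 ± 0.00707 TPM. Vim and Ina thus held most of the TPM of these genes in both libraries, and 43.1% of the TPM of Vim in replicate 1 and 41.5% in replicate 2 belonged to noncoding transcripts.

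Endothelial, mural and meningeal cells are known to use Vim, and vessels can use Nes, so the markers of these cells are given beside them. All 7 endothelial markers reached 1 TPM in both libraries, from Cldn5, a tight junction gene, at 40.7 ± 4.39 TPM to the receptor gene Tek at 4.96 ± 0.290 TPM, and summed to 106 TPM in replicate 1 and 113 in replicate 2. All 8 mural and meningeal markers did so too, from the collagen gene Col3a1 at 82.8 ± 2.60 TPM to the receptor gene Pdgfrb at 7.05 ± 0.445 TPM, and summed to 204 and 221 TPM. Among 8 microglial markers, 7 reached 1 TPM, from C1qb (16.4 ± 0.502 TPM) to Ptprc (0.580 ± 0.325 TPM), with sums of 50.5 and 51.8 TPM. Of all protein-coding genes, 59.0% reached 1 TPM in both libraries. The part of these cells in the levels of Vim and Nes was not tested.

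**Figure D2:**
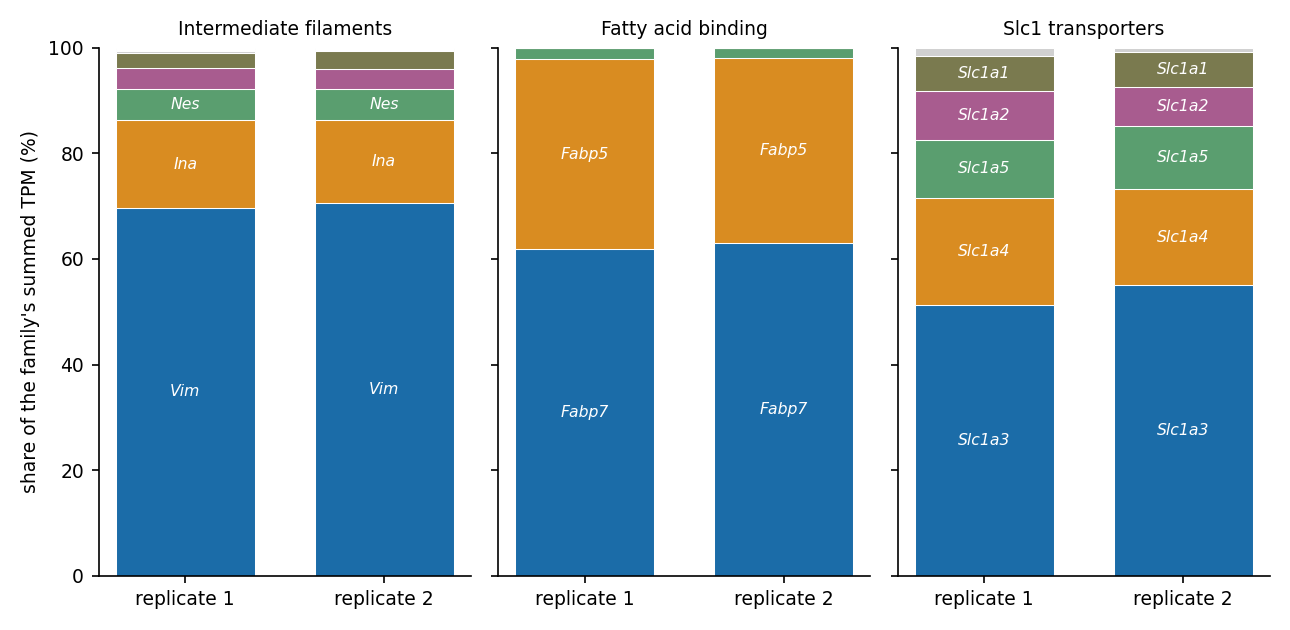
Shares of the summed TPM of 13 intermediate filament genes, 7 Fabp genes and 7 Slc1 genes, with replicate 1 left of replicate 2 the smallest genes in grey, and Nefl and Nefm as the unlabelled pink and olive bands of the filaments. The unlabelled green band of the Fabp genes is Fabp3. Vim, Fabp7 and Slc1a3 each hold more of their family than any other gene, in both libraries.

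Slc1a3 encodes GLAST, the glial transporter that clears glutamate (chr15:8634124-8710764, minus strand). It had 63.73 TPM in replicate 1 and 64.86 in replicate 2, a mean of 64.3 ± 0.799 TPM. By gene TPM it did not differ from Nes beyond the spread between libraries. With all reads set against the longest coding transcript, Nes was higher in both libraries. Nes then had 63.2 TPM in replicate 1 and 57.4 in replicate 2, against 54.0 and 53.3 for Slc1a3. Of the 7 Slc1 genes it held 51.2% of the TPM in replicate 1 and 55.1% in replicate 2. Slc1a4, a neutral amino acid transporter, was next with 20.4% and 18.1%. Slc1a2, which encodes GLT-1, the main glutamate transporter of mature astrocytes, had 11.52 TPM in replicate 1 and 8.86 in replicate 2, and Slc1a3 exceeded it 6.43 ± 1.26 times. Slc1a5, another neutral amino acid transporter, stood between them at 13.8 ± 0.318 TPM, and Slc1a7 was lowest with 0.03 TPM in replicate 1 and 0 in replicate 2. Of the 6 relatives of Slc1a3, 4 reached 1 TPM in both libraries, where 59.0% of all protein-coding genes did.

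Prom1 encodes prominin-1, a membrane protein of the apical protrusions and cilium of neural stem cells (chr5:43993620-44102032, minus strand). Its level was 46.81 TPM in replicate 1 and 42.06 in replicate 2, a mean of 44.4 ± 3.36 TPM. Ptprz1 encodes a receptor-type tyrosine phosphatase that also exists as the secreted proteoglycan phosphacan (chr6:22875502-23052916, plus strand). Ptprz1 had 47.69 TPM in replicate 1 and 38.63 in replicate 2, a mean of 43.2 ± 6.41 TPM from 8449 and 7462 counts. These means differed by less than the spread between libraries, and their order was opposite in the 2 libraries. Prom2, the relative of Prom1 known from epithelia, was at 0.02 TPM in both.

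Tnc encodes tenascin-C, a matrix glycoprotein of stem cell niches that binds Ptprz1 (chr4:63959785-64047015, minus strand). It had 6.06 TPM in replicate 1 and 4.25 in replicate 2, a mean of 5.16 ± 1.28 TPM from 936 and 722 counts, at rank 10176. Replicate 1 was the higher one, and Tnc had the largest relative spread of the members with at least 10 counts on average. Of 12 ligand, matrix and receptor partners of Ptprz1 and Tnc, 11 reached 1 TPM in both libraries, where 59.0% of all protein-coding genes did. Their median was 25.7 ± 0.972 TPM. The growth factor genes Mdk (511 ± 15.6 TPM) and Ptn (180 ± 21.6 TPM), whose products are ligands of Ptprz1, were far above the receptor, and Ptn exceeded Ptprz1 4.25 ± 1.13 times. Ncan, a proteoglycan gene of brain matrix, followed at 83.8 ± 0.530 TPM. The integrin gene Itga9, which encodes a chain of a tenascin-C receptor, was lowest at 0.425 ± 0.0495 TPM.

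Hopx encodes a small homeodomain protein without DNA binding that marks human outer radial glia and adult neural stem cells (chr5:77086988-77115121, minus strand). It had 1.20 TPM in replicate 1 and 1.25 in replicate 2, from 27.59 and 31 counts, whose exact Poisson 95% intervals were 18.6 to 40.5 and 21.1 to 44.0 counts. Its rank was 12608, and the libraries could not be told apart at this depth. Among 8 other genes described in human outer radial glia, 5 reached 1 TPM in both libraries, where 59.0% of all protein-coding genes did. Their median was 2.38 ± 0.110 TPM. The list was uneven, with the G protein gene Gng5 at 693 ± 32.4 TPM, the Wnt antagonist gene Sfrp1 at 62.1 ± 1.07 TPM, the cytokine receptor gene Il6st at 8.25 ± 0.502 TPM and Fam107a at 0.230 ± 0.0141 TPM.

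Aldh1l1 encodes a folate enzyme of the cytosol, much used as an astrocyte label (chr6:90486427-90600203, plus strand). Its level was 7.42 TPM in replicate 1 and 6.55 in replicate 2, a mean of 6.99 ± 0.615 TPM from 464.75 and 494 counts. It was the highest of the 3 astrocyte members. By gene TPM it was above Tnc in both libraries. With all reads set against the longest coding transcript, the ratio of Aldh1l1 to Tnc was 0.854 in replicate 1 and 1.18 in replicate 2. That transcript of Aldh1l1, Aldh1l1-203 of 4175 bases, held only 12.5% of its TPM in replicate 1 and 17.6% in replicate 2. The order of Aldh1l1 and Tnc in replicate 1 thus depends on the transcript length used. Aldh1l2, the mitochondrial relative, was higher, and the ratio of Aldh1l1 to Aldh1l2 was 0.661 ± 0.0429. Of the 7 genes listed beside Aldh1l1, which include Prom2, the relative of Prom1, 5 reached 1 TPM in both libraries. Of all protein-coding genes, 59.0% did. That list was led by the folate gene Mthfd1 (37.5 ± 2.80 TPM), Aldh1l2 (10.6 ± 1.62 TPM) and Mthfd1l (4.82 ± 0.841 TPM).

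Further genes of radial glia are given beside the members. They were chosen with earlier results of these data known, so they cannot check the label. All 13 other apical progenitor genes were at 10 TPM or more in both libraries, where 38.9% of all protein-coding genes were. Their median was 74.2 ± 2.02 TPM. Dbi, which encodes an acyl-CoA binding protein, led with 1026.78 TPM in replicate 1 and 1321.61 in replicate 2. The Notch target gene Hes5 (211 ± 16.6 TPM) and the cadherin gene Cdh2 (170 ± 13.1 TPM) followed, and Lfng, a modifier of Notch, was lowest at 23.2 ± 1.78 TPM. The transcription factor genes Pax6 and Sox2 were at 74.2 ± 2.02 and 31.4 ± 3.25 TPM.

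Astrocyte genes were split. Of 15 others beside the members, 11 reached 1 TPM in both libraries, with a median of 18.5 ± 2.02 TPM, where 59.0% of all protein-coding genes reached that level. The glycolytic gene Aldoc (115 ± 2.23 TPM), the lipid carrier gene Apoe (101 ± 5.83 TPM), the glutamine synthetase gene Glul (92.0 ± 6.66 TPM) and the connexin gene Gja1 (61.6 ± 1.71 TPM) were high. The lowest were Agt, which encodes angiotensinogen, at 0.18 TPM in replicate 1 and 0 in replicate 2, the water channel gene Aqp4 at 0.21 and 0.24 TPM, and S100b at 0.39 and 0.06 TPM. Of the 6 genes listed as astrocyte markers, Gja1, Slc1a2 (10.2 ± 1.88 TPM) and the member Aldh1l1 were above 5 TPM in both libraries. Gfap, Aqp4 and S100b were below 1 TPM. The markers of astrocytes thus did not point one way.

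Regulators of the switch to astrocyte production were mostly present. Of 19, 18 reached 1 TPM in both libraries, where 59.0% of all protein-coding genes did. Their median was 22.5 ± 2.90 TPM. The nuclear factor I genes, known to promote astrocyte formation, were high, with Nfib at 142 TPM in replicate 1 and 167 in replicate 2, and Nfix at 106 and 118 TPM. Ezh2, which encodes the Polycomb enzyme that places H3K27 methylation, was highest at 175 ± 3.90 TPM. The cytokine gene Lif was at 0 in replicate 1 and 0.03 TPM in replicate 2. Over the 9 lists of relatives and companions, 80 of 101 entries (97 distinct genes) reached 1 TPM in both libraries, against that same 59.0%.

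**Figure D3:**
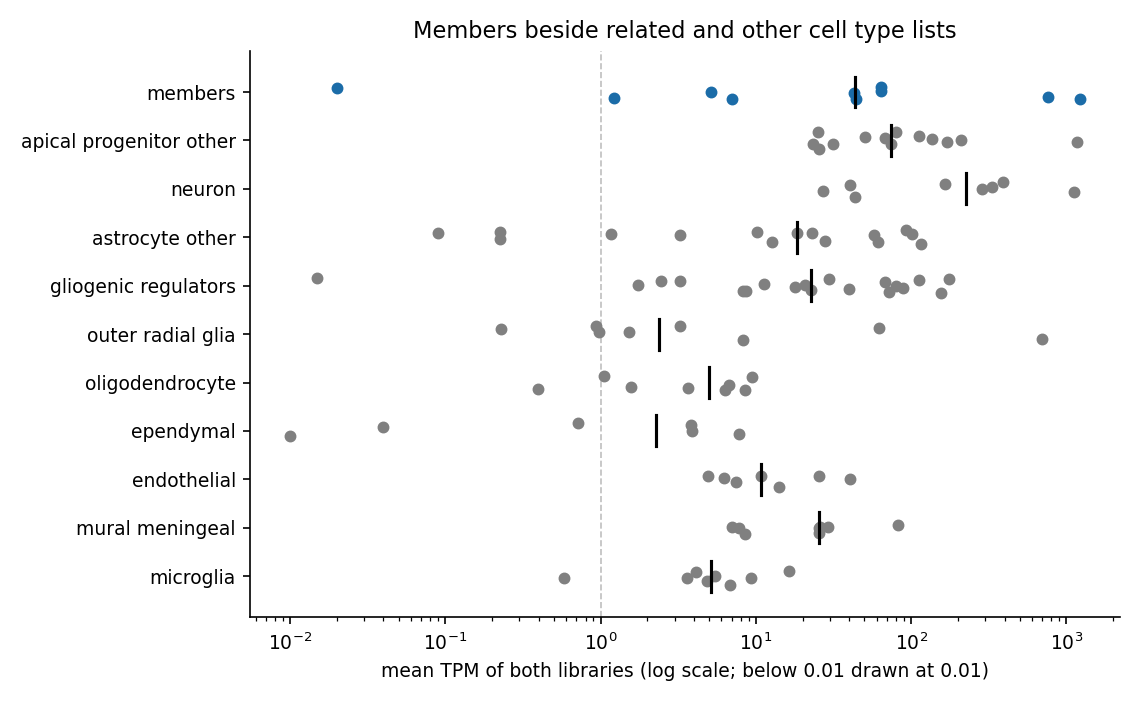
Mean TPM of both libraries for every gene of the members and of 10 other lists, on a log axis with a dashed line at 1 TPM, with bars at each list's median. The members spread from 0.02 to 1227 TPM, while all 13 other apical progenitor genes lie above 10 TPM.

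Neuron markers were high, and those of red blood cells were higher. The 7 red blood cell markers summed to 11857 TPM in replicate 1 and 11143 in replicate 2, and the 8 neuron markers to 2471 and 2328 TPM. All 8 neuron markers passed 10 TPM in both libraries, where 38.9% of all protein-coding genes did. Their median was 225 ± 15.9 TPM, from the tubulin gene Tubb3 (1116 ± 63.4 TPM) and Stmn2 (390 ± 3.56 TPM) to Rbfox3 (27.1 ± 1.65 TPM). Fabp7 was level with Tubb3, at a ratio of 1.10 ± 0.110. Oligodendrocyte markers, some of which precursors in the ventral forebrain share, ran from Mbp (9.41 ± 1.22 TPM) to Sox10 (0.395 ± 0.0212 TPM). Their median was 4.98 TPM over the genes' means, and 4.755 TPM within replicate 1 and 4.745 within replicate 2. Of these 8 markers, 6 reached 1 TPM in both libraries, where 59.0% of all protein-coding genes did. Ependymal markers reached 1 TPM in both libraries for 3 of 6, where 59.0% of all protein-coding genes did. They ran from Foxj1 (7.77 ± 1.58 TPM) and Rsph1 (3.91 ± 0.870 TPM) to Tmem212, listed at 0 in both.

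The transcript tables divide each gene's reads between its annotated transcripts, and for 4 members the main transcripts differ inside the protein. The stretches that set them apart are shown because the shares below turn on them. In each label, only refers to the pair of main coding transcripts compared, and other transcripts of the gene were not compared. Each is given in capitals with its neighbouring transcript bases in lower case, on the gene's own strand, from GENCODE M21 transcripts (GRCm38).
Nes-201 only, chr3:87976581-87976712: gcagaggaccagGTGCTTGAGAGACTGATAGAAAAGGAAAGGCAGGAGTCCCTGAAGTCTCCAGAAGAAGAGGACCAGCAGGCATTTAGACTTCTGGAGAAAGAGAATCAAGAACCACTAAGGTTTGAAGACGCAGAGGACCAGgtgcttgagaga
Tnc-203 only, chr4:63984460-63984732: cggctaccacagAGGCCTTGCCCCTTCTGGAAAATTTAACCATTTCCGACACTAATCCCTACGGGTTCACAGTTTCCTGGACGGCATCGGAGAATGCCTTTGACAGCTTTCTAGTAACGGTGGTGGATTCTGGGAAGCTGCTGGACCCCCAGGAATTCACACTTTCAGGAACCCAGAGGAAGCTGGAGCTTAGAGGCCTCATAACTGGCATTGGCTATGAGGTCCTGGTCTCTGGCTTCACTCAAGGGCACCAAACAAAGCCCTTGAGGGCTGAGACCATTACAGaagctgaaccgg
Prom1-202 only, chr5:44058626-44058652: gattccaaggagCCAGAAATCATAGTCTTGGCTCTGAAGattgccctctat
Vim-201 only, chr2:13581613-13581698: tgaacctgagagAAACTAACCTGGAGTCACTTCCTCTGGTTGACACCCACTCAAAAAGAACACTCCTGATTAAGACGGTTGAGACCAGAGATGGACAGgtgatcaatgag

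In Nes, replicate 1 gave 42.1% of the gene's TPM to Nes-201 and 53.4% to Nes-203, and replicate 2 gave them 60.0% and 32.7%. The leading transcript therefore differed between the libraries. Nes-203 encodes 1820 residues and Nes-201 encodes 1864. The 44 codons between them are the 132 bases above, which lie inside exon 4 of 4 of Nes-201 and are not a whole exon. The stretch begins with GT and ends with AG, and the same 41 bases run across its start and across its end, as a direct repeat in Nes-201. By counts Nes-201 held 3758 and Nes-203 held 4629 in replicate 1, against 5398 and 2856 in replicate 2, with posterior SDs of the authors' estimate between 348 and 398. At the gene level that posterior SD was 0 in both libraries.

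In Tnc, which is known for alternatively used fibronectin type III repeats, Tnc-204 held 56.4% of the TPM in replicate 1 and 48.1% in replicate 2, and Tnc-203 held 42.2% and 51.9%. The order was again opposite in the 2 libraries. Tnc-203 encodes 2110 residues and Tnc-204 encodes 2019, and the 91 codons between them are the 273 bases of exon 14 of 26 shown above. The posterior SDs of these transcripts' counts were 47.2 to 65.7, on counts between 347 and 532.

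In Prom1, Prom1-202 (867 residues) held 47.7% of the TPM in replicate 1 and 58.9% in replicate 2, and Prom1-207 (827 residues) held 46.2% and 39.0%. The same transcript led in both libraries, narrowly in replicate 1. Prom1-202 is 3743 bases long in the deposited data and 3966 in GENCODE M21. Its shares rest on the shorter model, and its exon number, residues and stretches on the longer. Beyond what Prom1-207 holds, Prom1-202 has exon 4 of 28, the 27 bases or 9 codons above. It also has a further run of 93 coding bases, or 31 codons, over 2 exons near the end of the protein. The other Prom1 transcripts were not compared.

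In Vim, Vim-201 (466 residues) held 31.3% of the TPM in replicate 1 and 29.8% in replicate 2, and Vim-206 (427 residues) held 25.5% and 28.7%. Vim-206 lacks exon 8 of 9, whose 86 bases are not a multiple of 3, so its reading frame differs from there on. The largest share of TPM belonged to Vim-203, an annotated retained-intron transcript of 535 bases with no protein, at 42.3% in replicate 1 and 40.9% in replicate 2. By estimated counts Vim-203 held 14.4% and 13.8%, and Vim-201 held 51.3% and 48.3%, because TPM divides by an effective length of 436 bases for Vim-203 and 2094 for Vim-201. With all of its reads set against Vim-201, Vim would stand at 466 ± 7.94 TPM, and the level of 759 TPM is 1.63 times that.

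The other members had 1 leading transcript. Fabp7-201 held 98.8% of the TPM in replicate 1 and 98.9% in replicate 2. Hopx-202 held 84.2% and 91.2%, from only 22.72 and 27.96 counts, and 68.9% and 79.9% by posterior means. All 3 Hopx transcripts encode 73 residues. Ptprz1 had 1 transcript in the annotation, Ptprz1-201 of 2312 residues, so its long, short and secreted forms could not be separated. Slc1a3-201 held 78.5% in replicate 1 and 74.1% in replicate 2, and noncoding transcripts of the gene held 20.8% and 24.9%. Aldh1l1-201 held 76.3% and 81.1%, and Aldh1l1-203, with the same 902 residues, held 12.5% and 17.6%. Gfap-201 held the 2 counts of its gene. The leading transcript differed between libraries for 2 of the 7 members with several transcripts and at least 100 counts on average, Nes and Tnc, and for 8.09% of 8839 protein-coding genes of that kind.

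**Figure D4:**
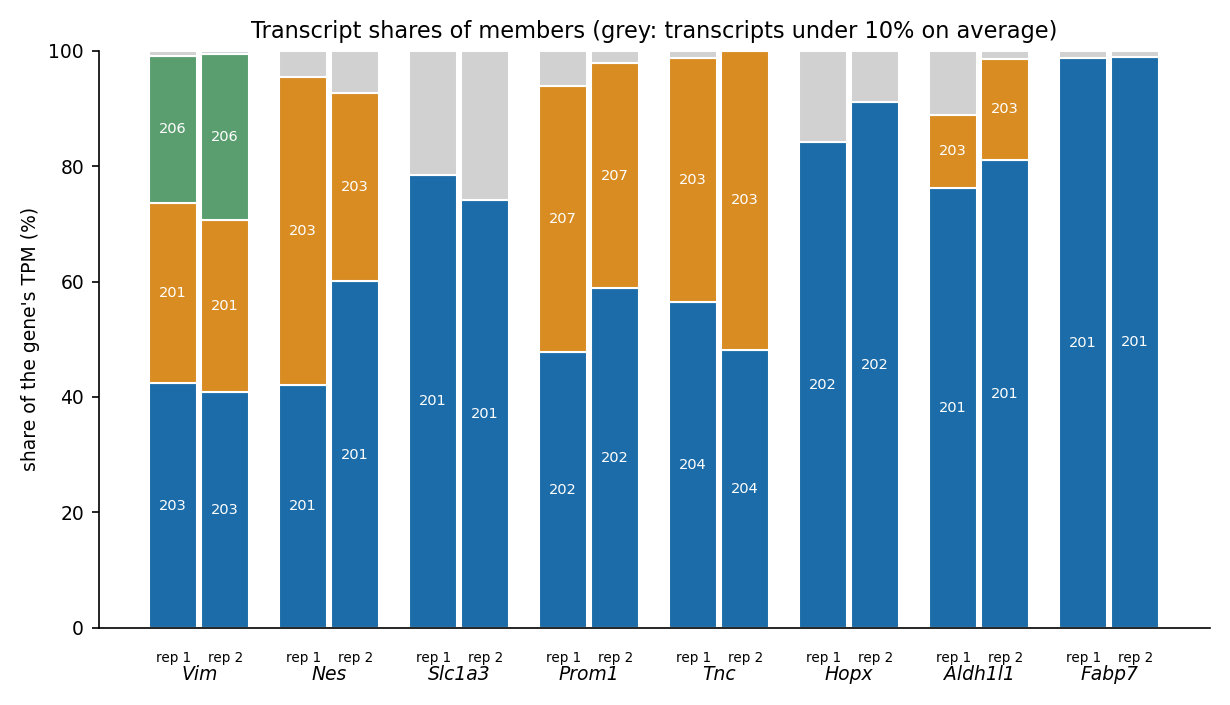
Share of a gene's TPM by transcript, for the 8 members other than Ptprz1 and Gfap, in replicate 1 (left bar) and replicate 2 (right bar), with transcript numbers in the bars and transcripts under 10% on average in grey. Nes-201 is below Nes-203 in replicate 1 and above it in replicate 2, and the short retained-intron Vim-203 holds 42.3% and 40.9% of Vim.

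The members differed little between the libraries. None of the 9 members with a mean count of at least 10 passed 2-fold in TPM, where 3.15% of 14553 protein-coding genes did, and none passed 1.5-fold, where 8.66% did. With 1 library on each side such a difference has no replicate check. Tnc was the farthest apart, 1.43 times higher in replicate 1 than in replicate 2, followed by Ptprz1, 1.23 times higher. TPM ran higher in replicate 1 in general, since the median log2 ratio of replicate 1 over replicate 2 was 0.11 over 11953 protein-coding genes with at least 100 counts on average, and it was -0.0047 after edgeR's TMM scaling of counts. By TPM 6 of the 8 members with that many counts were higher in replicate 1, and by TMM-scaled counts 4 were.

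Tnc had a log2 ratio of 0.51 by TPM and 0.38 by TMM-scaled counts, and 5.82% of genes lay as far from the median. Ptprz1 had 0.30 by TPM and 0.18 by TMM. Fabp7 was lower in replicate 1 under both scalings, at -0.09 and -0.21. Vim, at 0.05 and -0.09, and Aldh1l1, at 0.18 and -0.08, changed sign with the scaling, so they have no direction. The intervals of TPM that the authors deposited, whose level is not stated, overlapped between libraries for 5 of the 10 members and not for Fabp7, Nes, Prom1, Ptprz1 and Tnc. Choroid plexus markers, at 484 TPM in sum in replicate 1 and 254 TPM in replicate 2, were higher in replicate 1 for 7 of 7 genes, from Ttr (419.95 and 217.37 TPM) and Otx2 (29.92 and 19.74 TPM) to Kl (0.17 and 0.13 TPM). Their part in the differences of Tnc and Ptprz1 was not tested.

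**Figure D5:**
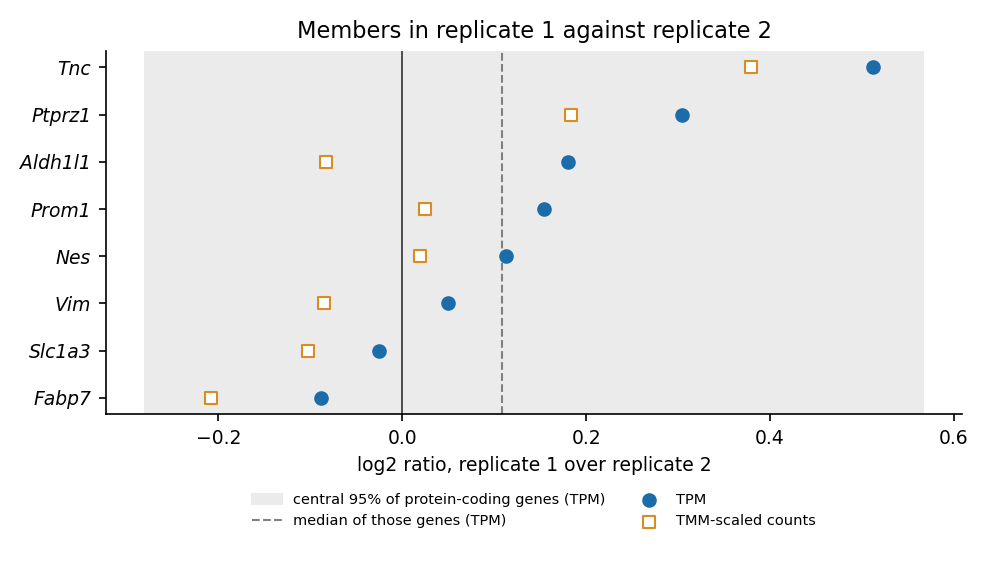
The log2 ratio of replicate 1 over replicate 2 for the 8 members with at least 100 counts on average, by TPM (filled) and by TMM-scaled counts (open squares), with the central 95% of protein-coding genes shaded and their median dashed. All 8 lie inside the shaded range, and Vim and Aldh1l1 stand on opposite sides of 0 under the 2 scalings.

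Promoter windows of RefSeq (GRCm38.p6, 250 bases before to 50 after an annotated start) were matched for all 10 members, 13 windows in all. The number of CpG dinucleotides in them did not follow the levels. Ptprz1 had 29, Nes 18 and Vim 11, the most abundant member Fabp7 had 6, and Slc1a3 and Gfap had 3 each, while the median of 32851 promoters was 7. The windows of the highest and the lowest member are given here up to the annotated gene or transcript start, on the gene's strand, with the letters of matches in capitals.
Fabp7, chr10:57784673-57784880, plus strand: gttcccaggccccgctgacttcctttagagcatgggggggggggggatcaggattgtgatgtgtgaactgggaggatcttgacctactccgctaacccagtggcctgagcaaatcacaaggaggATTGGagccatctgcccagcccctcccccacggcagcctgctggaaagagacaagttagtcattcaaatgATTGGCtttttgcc
Gfap, chr11:102897201-102897450, minus strand: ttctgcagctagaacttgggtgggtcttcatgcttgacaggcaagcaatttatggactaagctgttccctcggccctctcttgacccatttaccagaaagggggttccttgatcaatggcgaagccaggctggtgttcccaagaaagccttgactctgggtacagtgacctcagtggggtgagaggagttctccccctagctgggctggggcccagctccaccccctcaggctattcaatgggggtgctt

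In the 250 bases before the start, on both strands, 8 motifs were searched. They were the TATA box (TATAAA), the CCAAT box (CCAAT), the GC box (GGGCGG), the STAT site (TTCNNNGAA), the RBPJ site (GTGGGAA), the SOX site (ACAAAG), the NFI site (TTGGC) and the AP-1 site (TGANTCA). Fabp7 held CCAAT in 2 places, both on the opposite strand as ATTGG, and TTGGC in 1 place that overlaps the second of them. CCAAT was in 33.8% of all promoters and TTGGC in 41.5%. Gfap held none of the 8, which says only that these letters are not in this window.

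Some members share bases with other genes. Exons of Prom1 overlap the antisense gene Gm16401 over 424 bases (3.08 TPM in replicate 1 and 2.07 in replicate 2), those of Tnc overlap 8030451A03Rik over 176 bases (0.71 and 0.36 TPM), those of Hopx overlap Hopxos over 412 bases (0.18 and 0 TPM) and those of Aldh1l1 overlap Gm15756 over 499 bases (0.1 and 0 TPM). The strand setting of the counting is unknown here, so reads in those bases cannot be assigned with certainty. Exons of Aldh1l1 also share 105 bases with Gm45901, a lincRNA gene on the same strand with no deposited value. The longest coding transcript of each member was searched for copies at 95% identity over 100 bases or more. Apart from Gm16401, 8030451A03Rik, Hopxos and Gm15756, no gene matched. Other transcripts of the members were not searched.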

How the data were processed

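Total RNA-seq of mouse forebrain at embryonic day 13.5 (2 libraries, 1 group by the labels) was deposited as a gene and a transcript table per library, on mm10 with GENCODE M4 per the file headers and metadata. Aligner and strand setting: not given in the sources used here. Expected counts as deposited are, per the file headers, the authors' estimates of reads per feature. The deposited TPM and FPKM values are the authors' length-normalised abundances, with posterior means, posterior SDs and interval bounds beside them. Isoform percent, also deposited, is the part of a gene that 1 transcript makes up; it was recomputed from TPM.

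Symbols, classes and coordinates came from GENCODE M21 by identifier (42462 of 43346 mouse genes matched, and 20 identifiers with a repeated symbol were dropped). Each level is the mean over the 2 libraries, and its SD measures only the spread between these samples. A list median is taken over the genes' mean TPM, and its SD over the median of each library. Ratios are replicate 1 over replicate 2. No test was run. Counts were rounded for edgeR 4.0.16 (TMM) and DESeq2 1.42.0 (size factors), used for scaling only, in R 4.3.3. The rest ran in Python 3.11.15 with pandas 2.3.3 and scipy 1.17.1, plus BLAST 2.17.0. The scaling was tested on simulated counts.

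The members and lists were chosen with earlier results of these data known. Every member is named. Of each companion list the 3 highest genes and the lowest are named, of each cell type list the 2 highest and the lowest, and every member transcript with a mean share of at least 10%. Pax6, Sox2, Gja1, Aqp4, S100b and choroid plexus sums were added, and some genes that the rule names are left out here. Red blood cell markers, of which 7 of 7 reached 1 TPM against 59.0% of all protein-coding genes, were led by Hba-a2 (4899 ± 55.6 TPM). Alternatives were other estimates, thresholds, pseudocounts and scalings, leaving out each library and, chosen after seeing the data, levels and ratios on the longest coding transcript and shares of counts.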

Additional observations from a re-analysis of the deposited data

How the results depend on the processing

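No paired analysis was possible because the libraries form 1 group. The median of the members, 43.8 TPM, became 28.1 as FPKM, 54.4 as TPM over protein-coding genes alone and 28.8 as TMM-scaled counts per kilobase, which are other units, and 40.3 to 47.25 TPM with 1 library left out. Without the filter on counts, 1 member, Gfap, passed 2-fold, where 0 did before; it rests on 2 counts. The radial glia minus astrocyte difference of 4.84 became 5.57 with a pseudocount of 0.1, 5.10 as a mean over members, 4.77 with posterior means and 3.92 over genes at 1 TPM or more, which drops Gfap, and stayed within 4.80 to 4.88 with 1 library left out. The radial glia minus neuron difference of -1.78 became -0.79 as a mean over members, and was -1.82 to -1.73 with 1 library left out; the cause was not tested. The median log2 ratio of replicate 1 over replicate 2 of the members, 0.11 by TPM, reversed to -0.074 with TMM and -0.081 with DESeq2 size factors. Of the 101 companion entries, 66 reached 5 TPM in both libraries, where 46.8% of all protein-coding genes did. Among all 163 alternative values, the 2 that reversed, meaning a change of sign, were the TMM and DESeq2 values of that median log2 ratio. Levels, shares and counts cannot be negative, so they could not reverse. By the limits set for calling a value the same, 9 alternatives of main results and 41 of other results moved, values in other units included. Depth limits Gfap and Hopx, whose counts were at most 31, and the split of Nes, Tnc and Prom1 between transcripts rests on estimated reads, so a change of leading transcript between 2 libraries is a value, not a tested difference.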
